A study of Mus musculus with 458 samples.

Results

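Haematopoietic stem cells (HSCs) whose clone had replenished platelets alone (PLT) were set against HSCs whose clone had replenished platelets, erythrocytes and myeloid cells (PEM). The comparison rested on 177 PLT cells from 2 mice and 118 PEM cells from 2 mice, 295 of the 458 cells in the series. The members were taken by the reconstitution status that the deposited table of cells records, and each cell's label gave the same group. The remaining 163 cells came from 2 mice with multilineage reconstitution (MUL), and they entered only the estimate of the spread between mice and the levels given for orientation.

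All mice were C57BL/6, with no substrain in the labels. Each recipient had received a single Vwf+ HSC, and its blood lineages had been followed over 16 weeks. Donor-derived cells with the phenotype LSK CD150+CD48-CD45.2+ were then index sorted from bone marrow, 1 cell to a well, and sequenced with the SMARTer Ultra Low RNA kit. LSK stands for cells that lack lineage markers and carry Sca-1 and Kit on their surface, CD150+CD48- narrows this gate to HSCs, and CD45.2 marks the donor. PLT, PEM and MUL cells shared this strain, transplant and sort, and differed in the reconstitution of the mouse they came from. Since 1 transplanted cell founded the graft, the HSCs of a mouse are the progeny of 1 clone, and the comparison was of 2 clones with 2 clones. The names of the 4 PLT and PEM mice also each begin with a code of their own, read here as the experiment. The labels do not say what this code stands for. Fate, clone and experiment so read cannot be told apart. The ages of the mice were not used here.

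HSCs maintain all blood lineages, and those that transcribe Vwf, the gene of von Willebrand factor, are known to favour megakaryocytes, the marrow cells that shed platelets. Megakaryocytes and platelets use adhesion receptors such as integrin αIIbβ3 and the GPIb-IX-V complex, granules that hold clotting proteins, and transcription factors such as GATA1, GFI1B, NFE2 and FLI1. Erythroid cells share several of these factors, whereas PU.1, listed here under the older symbol Sfpi1, drives myeloid and lymphoid genes. HSCs themselves carry low levels of transcripts of several of these lineages.

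The cells were unequal in depth and content before any gene was compared. PLT mice 1 and 2 gave 93 and 84 cells, and PEM mice 1 and 2 gave 93 and 25. The median count of mapped reads was 4824829 and 4866069 per cell in PLT mice, against 5320228 and 4278280 in PEM mice. Detected genes, as the authors counted them, had medians of 1869 and 2596 in PLT mice, against 3186 and 2752 in PEM mice, so fewer genes were detected in both PLT mice than in both PEM mice. The median share of mitochondrial reads was 6.41% and 6.69% in PLT mice, against 4.01% and 4.03% in PEM mice. With 2 mice a group, the exact two-sided permutation test cannot go below p = 0.33, so these values carry no test. Whether they set any of the differences given below was not tested.

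PEM mouse 2 stood apart within its group. Its plate 2 held 11 cells with a median of 12211646 reads, against 3196828 in the 14 cells of its plate 1, a wider gap than between the plates of any other mouse. Calm2, a calmodulin gene expressed in nearly all cell types, was under 1 RPKM in 4 cells of that plate and in 0 cells of every other mouse and plate. Cd79a, a B cell receptor gene, reached 1994 RPKM in a cell of that plate and was at 0 in the other mice and plates. S100a8, a granule protein gene of neutrophils, reached 232885 RPKM in 1 cell of that plate, and 168501 and 9187 RPKM in 1 cell of each PLT mouse. It averaged 1822 and 116 RPKM in PLT mice, against 22.99 and 9322 RPKM in PEM mice, and it was 0.218 RPKM over plate 1 of PEM mouse 2. Where the 11 cells of plate 2 decided whether the levels of a named gene overlapped, or moved the fold change of a named gene without overlap by over 1.5 times, the value without them stands beside it. The recorded sex of 1 mouse also went against its transcripts. PLT mouse 2 is recorded as female, yet the Y-linked gene Eif2s3y averaged 84.8 RPKM there and Xist, which is transcribed from the inactive X chromosome, 0.0237 RPKM. Xist was at 1 RPKM or more in the cells of no mouse but PEM mouse 2, also recorded as female, where it averaged 30.7 RPKM. Whether this record is of the donor or of the recipient is not given in the sources used here.

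**Figure D1:**
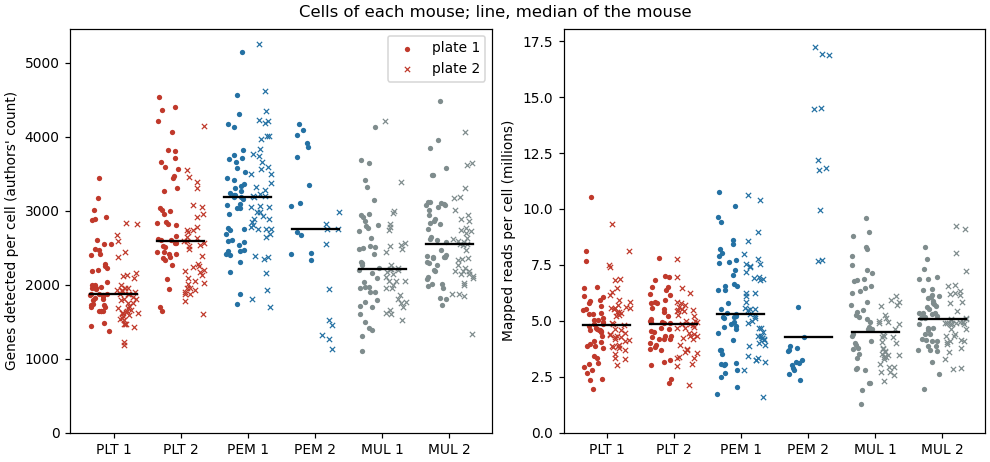
Detected genes per cell (left, the authors' count) and mapped reads per cell (right) for each mouse. Each point is a cell, circles are plate 1 and crosses plate 2, and the line is the median of the mouse. The median of detected genes is 1869 and 2596 in PLT mice, against 3186 and 2752 in PEM mice, and the 11 plate 2 cells of PEM mouse 2 lie above the other cells of that mouse in reads.

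The cells carried HSC transcripts in both groups. Ptprc, the gene of CD45, had 77.3 and 46.9 RPKM in PLT mice and 67.5 and 50 RPKM in PEM mice, and Slamf1, the gene of CD150, had 78.3 and 35 RPKM in PLT mice and 65.8 and 41 RPKM in PEM mice. Cd48, which the sort selects against, was listed at 0 and 0 RPKM in PLT mice and 2.91 and 0 RPKM in PEM mice. Procr, Hlf and Mecom, markers and regulators of HSCs, each had overlapping levels. Procr had 95.7 and 23.6 RPKM in PLT mice, against 56.9 and 45.3 RPKM in PEM mice. Hlf had 31.5 and 17.2 RPKM in PLT mice, against 26.8 and 25.2 RPKM in PEM mice. Mecom had 34.8 and 27.9 RPKM in PLT mice, against 32.8 and 13.6 RPKM in PEM mice. Mpo, a granule enzyme of myeloid progenitors, and Dntt, an enzyme of lymphoid progenitors, were listed at 0 in all 4 mice. Other progenitor markers were not: Prtn3, on the same list, averaged 220 and 61.9 RPKM in PLT mice and 367 RPKM in PEM mouse 1. At least 3 of 20 progenitor markers stood at 1 RPKM or more in 18.3% and 35.7% of cells in PLT mice, against 61.3% and 44% in PEM mice. HSC markers were thus found in every PLT and PEM mouse, beside the single cells of both groups described above.

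No gene passed the test of mean RPKM. RPKM scales the reads of a gene to the length of the gene and to the reads of the cell, and the cells of a mouse were averaged before the fit. Of 11337 genes tested with limma, 0 (0%) had an adjusted p under 0.05, and the lowest adjusted p was 0.177. At an unadjusted p under 0.05 stood 282 genes (2.49%) with a higher level in PLT mice and 667 (5.88%) with a lower one. Both PLT mice lay above both PEM mice for 1597 genes (14.1%) and below both for 2487 (21.9%), and these 2 counts are what is meant below by levels that did not overlap. Leaving out plate 2 of PEM mouse 2 gave 1554 and 2404, with a median log2 fold change of -0.09. Keeping only cells with 1800 to 3000 detected genes gave 2113 and 1885, with a median of 0.06. The excess on the low side depended on the scaling. After median-ratio scaling of the mouse means, 432 genes were higher and 538 lower at an unadjusted p under 0.05, and after quantile normalization 411 and 456. Over all genes tested the median log2 fold change was -0.13 unscaled and -0.01 and 0.02 after these scalings, so the changes below are to be read against a shift of about that size.

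The share of cells at 1 RPKM or more gave the same overall result with a stronger lean. Of 7761 genes tested with limma on the arcsine scale, 0 (0%) had an adjusted p under 0.05, the lowest being 0.410. At an unadjusted p under 0.05 stood 36 genes (0.464%) with a higher share in PLT mice and 889 (11.5%) with a lower one. The shares did not overlap for 185 genes (2.38%) in the higher direction and 2863 (36.9%) in the lower, and the median difference was -6.44 percentage points. Among cells with 1800 to 3000 detected genes, which evens out part of the gap in detection, the non-overlapping counts were 730 and 2046. A lower share in PLT mice was therefore the common case for any gene, and the counts of the gene groups below are read against it. The gene named first by both tests was Mmrn1.

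Mmrn1 encodes multimerin 1, a protein of platelet α-granules that binds factor V. The gene lies on chromosome 6, at chr6:60924976-60989378 of GRCm38 on the plus strand. Its mean level was 97.5 and 84.4 RPKM in PLT mice, against 0 and 0.00104 RPKM in PEM mice, and it was listed at 0 in both MUL mice. Both PLT mice thus held the transcript, and no cell of the other 4 mice held it at 1 RPKM or more. In PLT mouse 1, 28 of 93 cells (30.1%, exact 95% interval 21.03% to 40.5%) were at 1 RPKM or more, and in PLT mouse 2, 36 of 84 (42.9%, 32.1% to 54.1%). In PEM mice 0 of 93 and 0 of 25 cells reached 1 RPKM, where the exact intervals end at 3.89% and 13.7%. The intervals cover counting error only. Among the cells that held it, the median was 334 and 141 RPKM in PLT mice, and the top cell supplied 9.30% and 9.91% of the sum, so no single cell carried the mean. The fitted log2 fold change was 6.52 ± 0.73 (SE, n = 2 mice a group), with an adjusted p of 0.177 in limma. That value depends on the pseudocount of 1 RPKM, since PEM mice are at the floor: it was 9.82 with a pseudocount of 0.1 RPKM and 3.33 with one of 10 RPKM. It was 6.15 on plate 1 of each mouse and 6.82 on plate 2, and 6.62 among cells with 1800 to 3000 detected genes. Some stocks of C57BL/6 mice are known to lack Mmrn1, the labels name no substrain, and the part of the substrain in this result was not tested.

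The other leading genes higher in PLT mice included an HSC surface gene, 2 cytoskeletal genes and several that few cells held. Emcn encodes endomucin, a sialomucin that HSCs and endothelial cells carry. Its mean level was 11.1 and 40.7 RPKM in PLT mice, against 0 and 0 RPKM in PEM mice, and 62.7 and 56.6 RPKM in MUL mice, so PEM mice were the group in which it was listed at 0. In PLT mouse 1, however, 1 cell supplied 99.6% of the sum. Gkn3 encodes a gastrokine, and its transcript is known to accumulate in HSCs of old mice. It had 106 and 133 RPKM in PLT mice, against 13.5 and 3.36 RPKM in PEM mice, and was at 1 RPKM or more in 16.1% and 31% of cells in PLT mice, against 6.45% and 4% in PEM mice. Its log2 fold change was 3.91 ± 0.71 with an adjusted p of 0.539 in limma. The groups did not overlap in either measure, and MUL mice, at 4.95 and 3.11 RPKM, lay near PEM mice.

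The 3 abundant genes of this direction serve the cytoskeleton and calcium signalling. Tubb5, a β-tubulin gene, had 2950.3 and 2595 RPKM in PLT mice, against 1218 and 1194 RPKM in PEM mice (log2 fold change 1.20 ± 0.25). Twf1, the gene of the actin monomer binder twinfilin 1, had 506 and 372 RPKM in PLT mice, against 176 and 99 RPKM in PEM mice (log2 fold change 1.71 ± 0.37). Calm2 had 3205 and 3474 RPKM in PLT mice, against 1632 and 1555 RPKM in PEM mice (log2 fold change 1.07 ± 0.24). All 3 had an adjusted p of 0.539 in limma. In MUL mice Calm2 had 3072 and 2700 RPKM, nearer to PLT mice than to PEM mice. Tubb5 had 1756 and 1388 RPKM in MUL mice and Twf1 296 and 317 RPKM, between PLT and PEM mice. Without plate 2 of PEM mouse 2, where 4 cells lacked Calm2, the log2 fold changes were 1.07 for Tubb5, 1.47 for Twf1 and 0.92 for Calm2, and PEM mouse 1, which had no such cell, lay below both PLT mice in each. Actr2, a subunit of the Arp2/3 actin-branching complex named by the test of shares, had 499 and 484 RPKM in PLT mice, against 180.1 and 257 RPKM in PEM mice. Its share of cells was near its ceiling in all 4 mice, at 100% and 100% of cells in PLT mice, against 98.9% and 96% in PEM mice.

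Few cells held the remaining genes of this direction. Capsl had 46.5 and 8.88 RPKM in PLT mice, against 0 and 0 RPKM in PEM mice. Dpy19l2, a gene best known from sperm heads, had 10.6 and 8.12 RPKM in PLT mice, against 0 and 0 RPKM in PEM mice. Enkur, a gene of cilia and sperm, had 28.7 and 7.46 RPKM in PLT mice, against 0.351 and 0 RPKM in PEM mice. These 3 were at 1 RPKM or more in at most 8.6% of the cells of a PLT mouse. Lactb, a mitochondrial protein gene, had 16.3 and 17 RPKM in PLT mice, against 0.52 and 0.559 RPKM in PEM mice. Ubtd2 had 17.6 and 18.1 RPKM in PLT mice, against 1.02 and 1.37 RPKM in PEM mice. In each of these 5 genes the mean of a mouse rested on a handful of cells. In MUL mice Capsl had 33.0 and 21.8 RPKM and Enkur 11.2 and 10.1 RPKM, so PEM mice were the low group for both. Ubtd2 had 6.23 and 6.54 RPKM in MUL mice and Lactb 1.46 and 0 RPKM, and Dpy19l2 was listed at 0 there.

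The leading genes lower in PLT mice included a G protein subunit, a myeloid factor, lysosomal enzymes and an actin regulator, and all of them were held by a larger share of cells in both PEM mice than in both PLT mice. Gna15 encodes Gα15, a G protein subunit of blood cells that couples receptors to phospholipase C. It had 0 and 2.87 RPKM in PLT mice, against 56.3 and 49.4 RPKM in PEM mice, with 72.1 and 47.2 RPKM in MUL mice, and was at 1 RPKM or more in 0% and 3.57% of cells in PLT mice, against 33.3% and 28% in PEM mice. Its log2 fold change was -4.77 ± 0.73 with an adjusted p of 0.539 in limma. Sfpi1, the gene of PU.1, had 9.05 and 6.42 RPKM in PLT mice, against 55.2 and 66.7 RPKM in PEM mice, in 6.45% and 9.52% of cells in PLT mice, against 39.8% and 16% in PEM mice. Its log2 fold change was -2.84 ± 0.49, and the MUL mice, at 39.2 and 52.7 RPKM, lay near PEM mice. PLT mice were the low group for both genes, by levels that did not overlap, but the direction for Sfpi1 was not kept by every subset of cells. Among cells with under 3 markers of any mature cell type, which kept 27 and 46 cells of PLT mice, against 15 and 6 cells of PEM mice, its log2 fold change was 0.19.

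Among lysosomal enzymes, Ctsd, the gene of cathepsin D, had 35 and 12.9 RPKM in PLT mice, against 194 and 194 RPKM in PEM mice (log2 fold change -3.12 ± 0.51), in 9.68% and 17.9% of cells in PLT mice, against 67.7% and 56% in PEM mice. Man2b1, the gene of lysosomal α-mannosidase, had 4.81 and 4.86 RPKM in PLT mice, against 39.2 and 50.7 RPKM in PEM mice (log2 fold change -2.97 ± 0.56, and -2.36 without plate 2 of PEM mouse 2). Both genes were carried by a larger share of cells in PEM mice, and both stayed lower among cells with 1800 to 3000 detected genes, at log2 fold changes of -2.76 and -2.89. Coro1a, the gene of coronin 1A, an actin regulator of leukocytes, had 50.1 and 53.3 RPKM in PLT mice, against 231 and 252 RPKM in PEM mice (log2 fold change -2.20 ± 0.40). Fermt3, the gene of kindlin-3, which activates integrins in platelets and leukocytes, had 56.9 and 52 RPKM in PLT mice, against 208 and 226 RPKM in PEM mice (log2 fold change -1.98 ± 0.37). A gene that platelets need for aggregation was therefore lower in the HSCs of platelet-restricted clones, in 29% and 57.1% of cells in PLT mice, against 76.3% and 80% in PEM mice.

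Ccnd3, the gene of cyclin D3, had 17 and 14 RPKM in PLT mice, against 105 and 80.2 RPKM in PEM mice (log2 fold change -2.50 ± 0.44). Rbm38, the gene of an RNA-binding protein, had 23.1 and 29.2 RPKM in PLT mice, against 129 and 91.7 RPKM in PEM mice (log2 fold change -2.03 ± 0.41). Tgfbi, a matrix protein gene of monocytes, had 0.313 and 0 RPKM in PLT mice, against 30.4 and 21.2 RPKM in PEM mice. Few PEM cells held it, with 15.1% and 8% at 1 RPKM or more, and its log2 fold change of -4.52 ± 0.85 was -3.86 without plate 2 of PEM mouse 2. Levels in PLT mice were at or near 0 for Tgfbi and for 2 interferon-linked genes. Ifi27l2a, an interferon-induced gene, had 0 and 0 RPKM in PLT mice, against 17.3 and 26.4 RPKM in PEM mice. Over plate 1 of PEM mouse 2 it was listed at 0, the level of PLT mice, and its log2 fold change of -4.48 ± 0.88 was -2.10 without plate 2. Mavs, the gene of the mitochondrial adaptor of RNA sensing, had 0.00398 and 3.51 RPKM in PLT mice, against 36.8 and 50.7 RPKM in PEM mice. Limma gave an adjusted p of 0.539 for each of the lower genes named here, from Gna15 to Mavs.

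**Figure D2:**
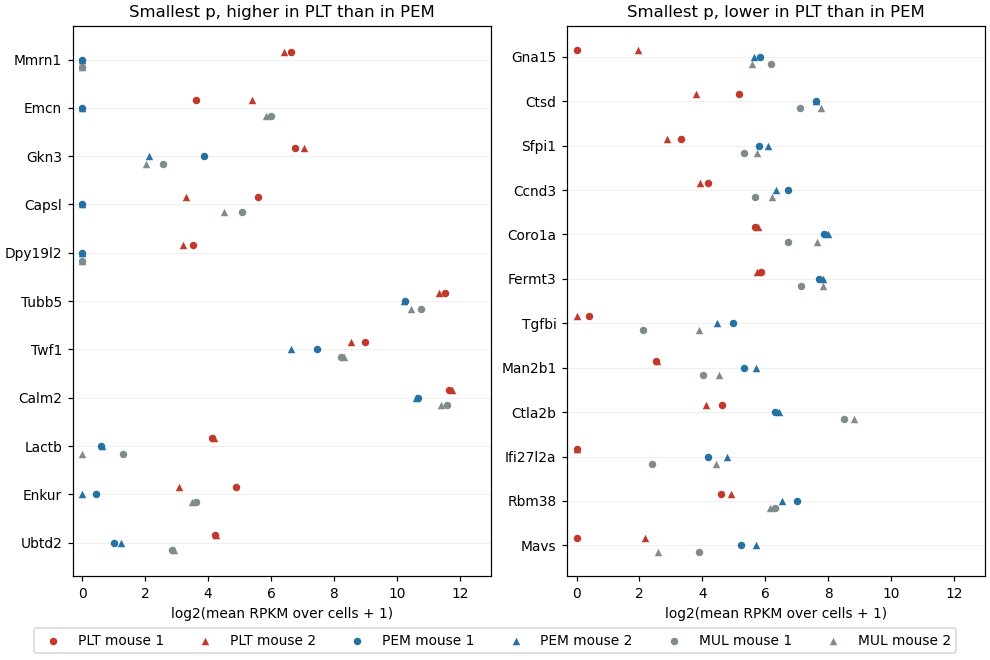
Mean level of 23 of the 24 genes with the smallest unadjusted p and no overlap between PLT and PEM mice, as log2(mean RPKM over cells + 1), 1 point a mouse. Mmrn1 sits at 97.5 and 84.4 RPKM in PLT mice and at or near 0 in the other 4 mice, while Coro1a and Fermt3 sit at about the same low level in both PLT mice.

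The sequence before the start of 4 of these genes is given, since 2 of them were higher and 2 lower in PLT mice and each start in RefSeq lay within 211 bases of the start in GENCODE M21. The window for Mmrn1 is not shown because its RefSeq start lay 19341 bases inside the GENCODE gene, and Spi1 was not used here. Each sequence is the 250 bases before the RefSeq start on GRCm38.p6, 5′ to 3′ on the strand of the gene. Emcn is on the plus strand at chr3:137340828-137341077, Gkn3 on the minus strand at chr6:87388936-87389185, Gna15 on the minus strand at chr10:81524226-81524475 and Ctsd on the minus strand at chr7:142387828-142388077. Capitals mark AGGAAG or its reverse complement CTTCCT, letters within sites of ETS factors, a family that holds PU.1 and FLI1.
Emcn: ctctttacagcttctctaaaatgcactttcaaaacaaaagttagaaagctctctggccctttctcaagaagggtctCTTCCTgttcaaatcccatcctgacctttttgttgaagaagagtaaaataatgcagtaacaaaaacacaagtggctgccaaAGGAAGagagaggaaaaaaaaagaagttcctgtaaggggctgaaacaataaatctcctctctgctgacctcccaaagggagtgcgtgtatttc
Gkn3: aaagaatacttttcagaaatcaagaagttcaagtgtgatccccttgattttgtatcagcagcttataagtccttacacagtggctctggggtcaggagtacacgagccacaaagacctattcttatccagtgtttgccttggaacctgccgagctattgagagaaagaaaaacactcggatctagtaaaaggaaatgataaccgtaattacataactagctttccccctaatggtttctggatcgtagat
Gna15: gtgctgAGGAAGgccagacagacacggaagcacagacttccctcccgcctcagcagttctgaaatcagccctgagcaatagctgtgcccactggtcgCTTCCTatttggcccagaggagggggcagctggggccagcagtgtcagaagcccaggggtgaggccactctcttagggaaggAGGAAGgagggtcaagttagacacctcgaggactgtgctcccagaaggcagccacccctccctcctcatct
Ctsd: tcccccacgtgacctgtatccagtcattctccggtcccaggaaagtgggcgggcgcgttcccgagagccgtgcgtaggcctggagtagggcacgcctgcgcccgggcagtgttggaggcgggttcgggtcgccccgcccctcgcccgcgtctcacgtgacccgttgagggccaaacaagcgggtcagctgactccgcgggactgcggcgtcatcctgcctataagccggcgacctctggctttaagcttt
Emcn held AGGAAG in 2 places and Gna15 in 3, and Gkn3 and Ctsd held it in 0. Over 32851 RefSeq promoter windows of this length, 29.5% held it on either strand. AGATAA, letters of GATA factor sites, and TGTGGT, letters of RUNX factor sites, were looked for on both strands and stood in none of the 4 windows, while 9.99% and 14.0% of all windows held them. A match is a description of these letters only.

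Platelet receptors and megakaryocyte and erythroid transcription factors did not lean towards PLT mice, and granule genes were mixed. Of 9 tested genes of platelet granules and secreted proteins, 3 lay above both PEM mice and 2 below, with a median log2 fold change of -0.05. Of 25 tested platelet receptors and adhesion genes, 3 lay above and 9 below, with a median of -0.51. Of 24 megakaryocyte and erythroid transcription factors, 3 lay above and 8 below, with a median of -0.28. None of these members passed the test over all genes. These counts stand beside 14.1% above and 21.9% below, and a median of -0.13, over all genes tested. Among cells with 1800 to 3000 detected genes the 3 medians were 0.46, -0.07 and 0.10, against 0.06 over all genes. The medians of receptors and factors were thus near that of all genes there, while 4 of the 9 granule genes lay above both PEM mice and 1 below.

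Among granule and secreted proteins, Vwf itself had 18.4 and 15.1 RPKM in PLT mice, against 24.6 and 23.5 RPKM in PEM mice, in 25.8% and 44% of cells in PLT mice, against 54.8% and 40% in PEM mice, with a log2 fold change of -0.50 ± 0.69. The transcript that marks the transplanted HSCs was therefore present in both groups and slightly lower in PLT mice, by less than its standard error. Pf4, the platelet factor 4 chemokine gene, had 133 and 632 RPKM in PLT mice, against 419 and 1382 RPKM in PEM mice, and the mice of a group differed by more than the groups did. Ppbp, the gene of another platelet chemokine, had 11.2 and 31.9 RPKM in PLT mice, against 6.35 and 11.7 RPKM in PEM mice. Clu, which encodes clusterin, a secreted chaperone, had 93 and 99.2 RPKM in PLT mice, against 63.6 and 32.1 RPKM in PEM mice, with 9.64 and 8.14 RPKM in MUL mice. Angpt1, the gene of angiopoietin 1, a ligand of the Tek receptor, had 156 and 190.0 RPKM in PLT mice, against 109 and 144 RPKM in PEM mice. Clu and Angpt1 lay above both PEM mice by log2 fold changes of 1.07 ± 0.50 and 0.46 ± 0.33, and Serpine2, a protease inhibitor gene, lay below, with 0.0267 and 12.3 RPKM in PLT mice, against 15.2 and 31.4 RPKM in PEM mice. Without plate 2 of PEM mouse 2 Angpt1 overlapped, at 194 RPKM in that mouse and a log2 fold change of 0.24. Among cells with under 3 markers of any mature cell type the log2 fold change of Clu was -0.68.

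Among receptors, the integrin and GPIb-IX-V subunits were low in PLT mice. Itga2b encodes the αIIb chain of the platelet fibrinogen receptor and had 0.888 and 2.68 RPKM in PLT mice, against 24.7 and 25.2 RPKM in PEM mice, with a log2 fold change of -3.30 ± 0.80. Gp5 had 0 and 1.75 RPKM in PLT mice, against 17.6 and 16.7 RPKM in PEM mice, and Gp9, of the same complex, had 22.6 and 12.9 RPKM in PLT mice, against 56.9 and 33.9 RPKM in PEM mice. Their ligand-binding partner Gp1ba overlapped, with 2.23 and 12 RPKM in PLT mice, against 7.49 and 7.82 RPKM in PEM mice. Without plate 2 of PEM mouse 2 the log2 fold change of Itga2b was -3.70 and that of Gp5 -3.85, but among cells with 1800 to 3000 detected genes they were -1.23 and -0.07.

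Esam, an adhesion molecule gene of platelets and HSCs, had 41.3 and 14.5 RPKM in PLT mice, against 126 and 82 RPKM in PEM mice (log2 fold change -2.00 ± 0.60). Selp, the gene of P-selectin, overlapped, with 47.5 and 34.3 RPKM in PLT mice, against 48 and 15.9 RPKM in PEM mice. Cd36, a scavenger receptor gene of platelets, was among the 3 receptors above both PEM mice, with 2.64 and 18.1 RPKM in PLT mice, against 0.00237 and 0.154 RPKM in PEM mice (log2 fold change 2.96 ± 0.96). The arachidonate enzyme gene Alox12 had 4.07 and 10.5 RPKM in PLT mice, against 3.18 and 0.451 RPKM in PEM mice, but its log2 fold change of 1.63 was -0.98 on plate 2 of each mouse. Markers of mature megakaryocytes summed to 440 and 995 RPKM in PLT mice, against 882 and 1956 RPKM in PEM mice, led by Pf4 and Gng11, with Gp6 listed at 0, and their part in these results was not tested.

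The transcription factors were divided. Gfi1b, a repressor needed for megakaryocytes and erythroid cells, had 22.8 and 74.3 RPKM in PLT mice, against 128 and 209.7 RPKM in PEM mice (log2 fold change -1.96 ± 0.70). Nfe2, which drives platelet release, had 205 and 122 RPKM in PLT mice, against 341 and 239 RPKM in PEM mice (log2 fold change -0.85 ± 0.40). Lyl1, a relative of Tal1, had 31.2 and 15.1 RPKM in PLT mice, against 99.1 and 39.4 RPKM in PEM mice (log2 fold change -1.48 ± 0.58). These 3 and Klf3, with 0.874 and 0.485 RPKM in PLT mice, against 2.77 and 16.1 RPKM in PEM mice, lay below both PEM mice. Gata1 did too, with 4.23 and 16.8 RPKM in PLT mice, against 18.7 and 19.8 RPKM in PEM mice, by a log2 fold change of -1.07 ± 0.80, close to its standard error, which was 1.91 among cells with 1800 to 3000 detected genes and 0.64 on plate 2 of each mouse. Fli1, an ETS factor of megakaryocytes, lay on the other side, with 256 and 161 RPKM in PLT mice, against 115 and 83 RPKM in PEM mice (log2 fold change 1.05 ± 0.42).

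Gata2, a factor of HSCs and early progenitors, overlapped, with 18.6 and 29.3 RPKM in PLT mice, against 50.1 and 20.6 RPKM in PEM mice, and lay lower in PLT mice without plate 2 of PEM mouse 2, at 30.5 RPKM over plate 1 of that mouse. In the cytoskeleton and vesicle genes of megakaryocytes, 1 of 24 lay above both PEM mice and 10 below, with a median of -0.57. The shares over all genes were 14.1% and 21.9%. Bin2, a membrane-bending protein gene of platelets and leukocytes, had 129.6 and 78 RPKM in PLT mice, against 354 and 195 RPKM in PEM mice (log2 fold change -1.38 ± 0.51). Rasgrp2, which activates Rap1 in platelets, had 5.92 and 8.89 RPKM in PLT mice, against 26.8 and 20.9 RPKM in PEM mice (log2 fold change -1.58 ± 0.60). Tubb4b, another β-tubulin gene, had 27.3 and 76.6 RPKM in PLT mice, against 138 and 135 RPKM in PEM mice, opposite in direction to Tubb5. Among cells with 1800 to 3000 detected genes the counts of this group were 4 above and 5 below, with a median of -0.13. Over all 11337 genes the counts were then 2113 and 1885, with a median of 0.06.

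**Figure D3:**
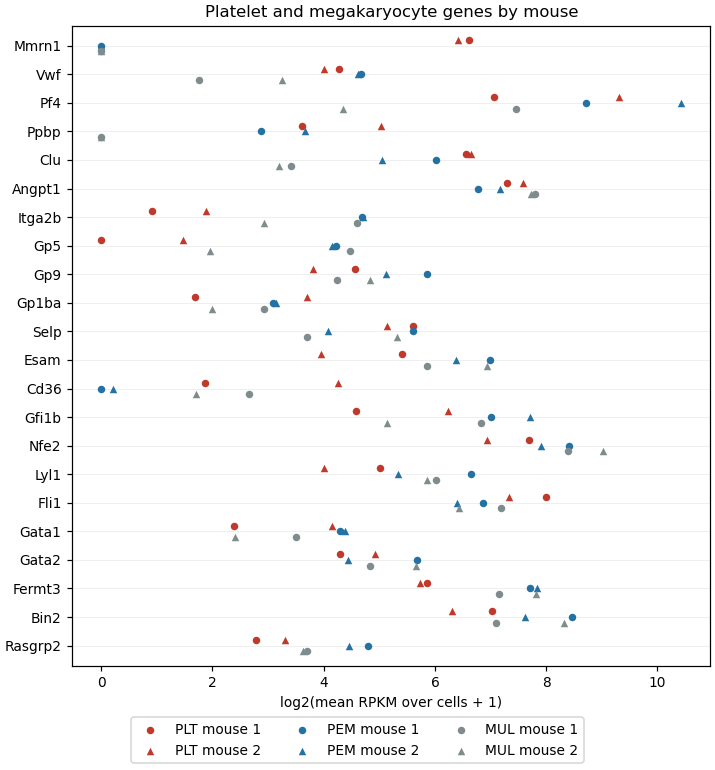
Mean level of platelet and megakaryocyte genes in each mouse, as log2(mean RPKM over cells + 1), from granule proteins at the top through receptors and transcription factors to integrin and signalling genes. Mmrn1 and Fli1 lie higher in both PLT mice, Itga2b, Gp5, Gfi1b and Fermt3 lower, and Pf4 and Selp overlap.

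Erythroid genes, whose lineage PEM clones replenished and PLT clones did not, were lower in the median but not robustly so. Of 20 tested genes of erythroid progenitors, 1 lay above both PEM mice and 5 below, with a median of -0.87. The shares over all genes were 14.1% and 21.9%, with a median of -0.13. Without plate 2 of PEM mouse 2 the counts were 4 and 3 and the median -0.32, and among cells with 1800 to 3000 detected genes the median was 0.17. Fech, the enzyme of the last step of haem synthesis, had 17.9 and 43 RPKM in PLT mice, against 55.6 and 243 RPKM in PEM mice, and 1 cell supplied 76.4% of the sum in PEM mouse 2. Klf1, the erythroid master factor, had 3.86 and 0 RPKM in PLT mice, against 2.85 and 67.1 RPKM in PEM mice, with 92.6% from 1 cell of PEM mouse 2. Epor, the erythropoietin receptor gene, had 5.22 and 6.77 RPKM in PLT mice, against 11.1 and 14 RPKM in PEM mice, and Blvrb, a haem catabolism gene, had 68.7 and 40.1 RPKM in PLT mice, against 85.2 and 129 RPKM in PEM mice. Without plate 2 of PEM mouse 2 that mouse had 29.5 RPKM of Fech and 13.8 RPKM of Blvrb, levels that overlapped with PLT mice, and the log2 fold changes of -2.02 ± 0.75 and -0.98 ± 0.50 were -0.52 and 0.58. Markers of mature erythroid cells summed to 57.5 and 173 RPKM in PLT mice, against 97.7 and 846 RPKM in PEM mice, led by Alas2 in PEM mouse 2, with Hba-a2 and Hbb-b2 listed at 0. Their part in the erythroid result was not tested.

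Myeloid regulators did not lean beyond the background as a group. Of 16 tested, 0 lay above both PEM mice and 4 below, near the 21.9% over all genes, with a median of -0.67, which was 0.40 without plate 2 of PEM mouse 2. Csf3r, the G-CSF receptor gene, had 2.32 and 1.41 RPKM in PLT mice, against 19.7 and 12.9 RPKM in PEM mice (log2 fold change -2.59 ± 0.68), although its share of cells overlapped, at 82.8% and 54.8% of cells in PLT mice, against 77.4% and 88% in PEM mice. The groups were apart in the mean level of this gene and not in its share of cells. Ms4a3, a gene of granulocyte and monocyte progenitors, had 0 and 0.987 RPKM in PLT mice, against 4.89 and 6.88 RPKM in PEM mice. Neutrophil markers summed to 3310 and 270 RPKM in PLT mice, against 476 and 15289 RPKM in PEM mice, with Elane and Mpo at 0. S100a8 led them in both PLT mice and PEM mouse 2, and Prtn3, at 367 RPKM, in PEM mouse 1. Macrophage and monocyte markers summed to 548 and 573 RPKM in PLT mice, against 588 and 1457 RPKM in PEM mice, led by Lyz2. Sfpi1 and Csf3r were lower in PLT mice by log2 fold changes of -2.58 and -1.77 without plate 2 of PEM mouse 2, which held the cell with the highest S100a8.

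Lymphoid genes are of lineages that neither clone type replenished. Of 21 tested, 2 lay above both PEM mice and 5 below, against 14.1% and 21.9% over all genes. Their median was -0.43, and -0.10 without plate 2 of PEM mouse 2. Cd27, a receptor of the TNF receptor family on HSCs, progenitors and lymphocytes, had 22.7 and 0.542 RPKM in PLT mice, against 85.4 and 111 RPKM in PEM mice, with 139 and 187 RPKM in MUL mice. It was at 1 RPKM or more in 23.7% and 1.19% of cells in PLT mice, against 87.1% and 52% in PEM mice, and its log2 fold change was -4.03 ± 1.06 with an adjusted p of 0.539 in limma. Flt3, the cytokine receptor gene of multipotent and lymphoid progenitors, was listed at 0 and 0 RPKM in PLT mice and had 1.14 and 9.43 RPKM in PEM mice. In plate 1 of PEM mouse 2 it was also listed at 0, and its log2 fold change of -2.24 ± 1.07 was -0.55 without plate 2. Il2rg, the common γ chain gene, lay on the other side, with 963 and 538 RPKM in PLT mice, against 523 and 309 RPKM in PEM mice (log2 fold change 0.84 ± 0.39). B cell markers summed to 49.7 and 26.4 RPKM in PLT mice, against 51.7 and 334 RPKM in PEM mice, led by Cd79b, with Pax5 at 0. The log2 fold change of Cd79b was -1.57 ± 0.69, and -0.67 without plate 2 of PEM mouse 2. T and NK cell markers summed to 140 and 83.1 RPKM in PLT mice, against 184 and 199 RPKM in PEM mice, with Cd3e at 0. Lat, a signalling adaptor gene of T cells and platelets on that list, had 5.93 and 14.5 RPKM in PLT mice, against 45.1 and 42.2 RPKM in PEM mice. The part of such cells in the lymphoid values was not tested.

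HSC identity genes were split with a median near 0. Of 39 tested, 6 lay above both PEM mice and 9 below, near the 14.1% and 21.9% over all genes. Their median was -0.03. Cd34, which marks short-lived HSCs and progenitors in mice, had 1.48 and 13.4 RPKM in PLT mice, against 36.9 and 28.5 RPKM in PEM mice (log2 fold change -2.48 ± 0.79), with 95.6 and 121 RPKM in MUL mice. Kit, the stem cell factor receptor on which the sort selects, had 58.7 and 30.2 RPKM in PLT mice, against 81.3 and 76.1 RPKM in PEM mice (log2 fold change -0.88 ± 0.46), in 34.4% and 39.3% of cells in PLT mice, against 75.3% and 72% in PEM mice. Ly6a, the gene of Sca-1, had 289.9 and 191 RPKM in PLT mice, against 444 and 399.9 RPKM in PEM mice (log2 fold change -0.84 ± 0.38). Kit and Ly6a were lower in both PLT mice than in both PEM mice, whereas Slamf1 and Ptprc, of the same gate, overlapped as given above. Among cells with under 3 markers of any mature cell type the log2 fold change of Ly6a was 0.71. Gpr56, an adhesion receptor gene of HSCs, had 82.6 and 52.4 RPKM in PLT mice, against 209.7 and 123 RPKM in PEM mice (log2 fold change -1.27 ± 0.47). Slamf1 differed by 0.01 ± 0.74 and Procr by -0.09 ± 0.66.

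Among receptors for niche signals, 4 of 31 lay above both PEM mice and 10 below, with a median of -0.47. Itga5, a fibronectin receptor chain gene, had 1.4 and 1.76 RPKM in PLT mice, against 7.75 and 9.15 RPKM in PEM mice. Lgr4, an R-spondin receptor gene named by the test of shares, had 17.5 and 6.76 RPKM in PLT mice, against 0.733 and 2.17 RPKM in PEM mice, in 18.3% and 15.5% of cells in PLT mice, against 3.23% and 4% in PEM mice, and its log2 fold change of 2.35 ± 0.81 was 3.19 without plate 2 of PEM mouse 2. Of genes known to be higher in HSCs of old mice, 8 of 30 lay above both PEM mice and 4 below, against 14.1% and 21.9% over all genes. Their median of 0.26 depended on PEM mouse 2. Without that mouse it was -0.40, against -0.26 over all genes. By share of cells, 3 of 27 members were higher and 9 lower, against 2.38% and 36.9% over all genes. In mean RPKM, Gkn3, Mt1, Clu and Ramp2 were on the higher side. Ramp2, a receptor partner of adrenomedullin signalling, had 36.9 and 13.2 RPKM in PLT mice, against 9 and 0 RPKM in PEM mice. Aldh1a1, a retinaldehyde dehydrogenase gene on the same list, lay below, with 59.7 and 85.9 RPKM in PLT mice, against 118 and 198 RPKM in PEM mice (log2 fold change -1.09 ± 0.41).

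The paired genes Ctla2a and Ctla2b, which encode small inhibitors of cysteine proteases, were low in PLT mice. Ctla2a had 13.7 and 79.6 RPKM in PLT mice, against 162 and 154 RPKM in PEM mice, and 286 and 517 RPKM in MUL mice. Ctla2b had 23.8 and 16.3 RPKM in PLT mice, against 78 and 85.7 RPKM in PEM mice, and 362 and 455 RPKM in MUL mice. Neither gene overlapped between any 2 of the 3 groups, and the order was PLT, PEM, MUL from low to high. Their log2 fold changes were -2.21 ± 0.71 and -2.00 ± 0.38. The genes are close paralogs, so reads may have been divided between them and each value alone is uncertain.

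**Figure D4:**
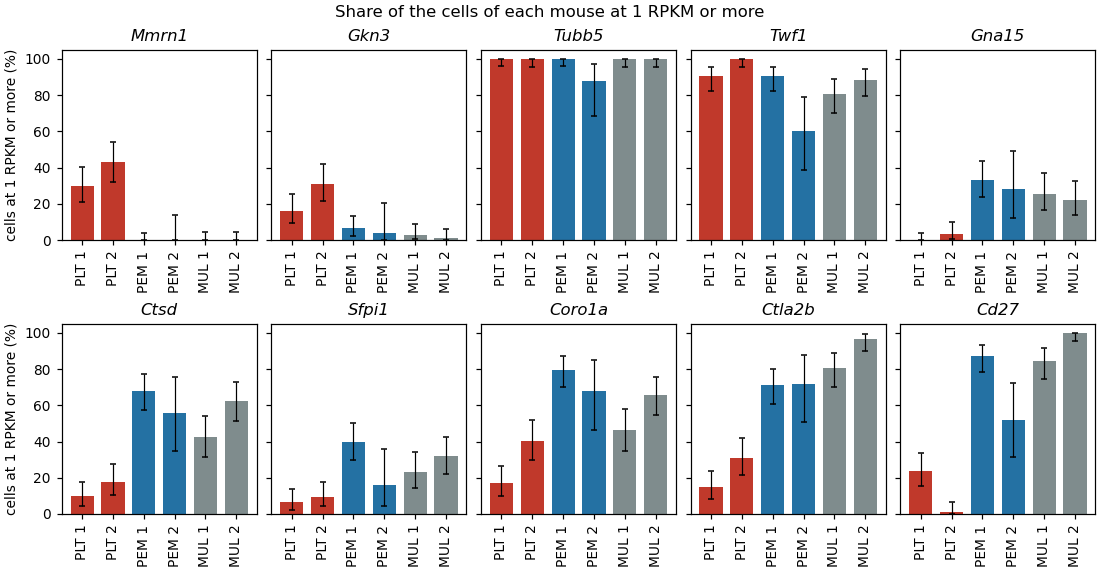
Percent of the cells of each mouse at 1 RPKM or more for 10 genes, with exact 95% binomial intervals that cover counting error only. Mmrn1 was held by 30.1% and 42.9% of PLT cells and 0% of PEM and MUL cells, while Gna15, Ctsd, Coro1a, Ctla2b and Cd27 were held by fewer PLT cells than PEM cells.

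Cell cycle genes gave different readings for S phase and for G2 and mitosis. Of 35 S phase genes, 2 lay above both PEM mice and 10 below, with a median of -0.35. Of 39 genes of G2 and mitosis, 6 lay above and 3 below, with a median of 0.16. The shares over all genes were 14.1% above and 21.9% below, with a median of -0.13. Subunits of the MCM helicase, which opens replication origins, were lower in PLT mice. Mcm3 had 16.1 and 55.9 RPKM in PLT mice, against 107 and 102 RPKM in PEM mice, Mcm5 had 10.7 and 31.1 RPKM in PLT mice, against 64.1 and 67.4 RPKM in PEM mice and Mcm7 had 15.4 and 36.3 RPKM in PLT mice, against 62.8 and 85.1 RPKM in PEM mice. Cdt1, which loads the helicase, had 2.88 and 6.12 RPKM in PLT mice, against 18.2 and 70.4 RPKM in PEM mice, with 99.9% of the sum from 1 cell in PLT mouse 1, and its log2 fold change of -2.82 ± 0.87 was -1.84 without plate 2 of PEM mouse 2. Mki67, a marker of cycling cells, overlapped, with 6.66 and 11.3 RPKM in PLT mice, against 6.07 and 8.98 RPKM in PEM mice. Ube2c, a ubiquitin enzyme of mitosis, had 32.9 and 85.1 RPKM in PLT mice, against 26.6 and 6.9 RPKM in PEM mice, and Plk1, a mitotic kinase gene, had 2.22 and 1.06 RPKM in PLT mice, against 7.25 and 13.1 RPKM in PEM mice.

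These readings turned with the cells that were kept. Among cells with 1800 to 3000 detected genes, 16 of the S phase genes lay above both PEM mice and 1 below, with a median of 1.37, and 35 of the G2 and mitosis genes lay above and 1 below, with a median of 2.69. That window kept 55 and 56 cells of PLT mice, against 36 and 11 cells of PEM mice. Over all 11337 genes tested, 2113 lay above and 1885 below there, with a median of 0.06. Without plate 2 of PEM mouse 2 the median of G2 and mitosis genes was -0.18. Inhibitors of cyclin-dependent kinases and other quiescence genes had a median of 0.20, with 5 of 30 above and 6 below. With all cells kept, the shares over all genes were 14.1% and 21.9%. Cdkn1b, the gene of p27, had 133 and 90.2 RPKM in PLT mice, against 73.6 and 59.8 RPKM in PEM mice, and Cdkn1c, the gene of p57, had 18 and 5.19 RPKM in PLT mice, against 2.84 and 2.81 RPKM in PEM mice. Trp53, the p53 gene, lay below, with 56.4 and 98.6 RPKM in PLT mice, against 178 and 106 RPKM in PEM mice.

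Interferon response and antigen presentation genes were lower in PLT mice in the median, and many members did not overlap. Of 31 tested interferon genes, 1 lay above both PEM mice and 15 below, with a median of -0.57. Of 25 antigen presentation genes, 1 lay above and 10 below, with a median of -0.56. The shares over all genes were 14.1% above and 21.9% below, with a median of -0.13. Among cells with 1800 to 3000 detected genes the medians were -0.98 and -0.92, against 0.06 over all genes in those cells. Without plate 2 of PEM mouse 2 they were -0.42 and -0.45, against -0.09 over all genes. The counts below both PEM mice were then 10 interferon genes and 10 antigen presentation genes. No member passed the test over all genes.

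Usp18, an enzyme that removes ISG15 and restrains interferon signalling, had 0.766 and 9.23 RPKM in PLT mice, against 59.2 and 43.9 RPKM in PEM mice (log2 fold change -3.61 ± 0.91). Irf1, an interferon-induced transcription factor, had 8.06 and 11.2 RPKM in PLT mice, against 38.9 and 39.5 RPKM in PEM mice (log2 fold change -1.94 ± 0.49). Rtp4, an interferon-induced gene, had 150.0 and 79.4 RPKM in PLT mice, against 201 and 279 RPKM in PEM mice, and Zbp1, a nucleic acid sensor gene, had 2.82 and 3.57 RPKM in PLT mice, against 9.53 and 26 RPKM in PEM mice. All 4 lay below both PEM mice, but for Usp18 and Rtp4 this rested on plate 2 of PEM mouse 2. Over plate 1 that mouse had 6.25 RPKM of Usp18 and 61.5 RPKM of Rtp4, which overlapped with PLT mice. Without plate 2 the log2 fold changes were -2.30 for Usp18, -0.03 for Rtp4, against -1.11 ± 0.41 with it, and -1.10 for Zbp1, against -2.01 ± 0.77 with it. Of the class I pathway, H2-D1 had 325 and 239.6 RPKM in PLT mice, against 619.8 and 578 RPKM in PEM mice (log2 fold change -1.10 ± 0.33), and Tap2, a peptide transporter subunit, had 11.6 and 1.88 RPKM in PLT mice, against 44.9 and 29.6 RPKM in PEM mice (log2 fold change -2.64 ± 0.74). H2-M3 had 35.2 and 32.5 RPKM in PLT mice, against 84.2 and 89.2 RPKM in PEM mice. Ctss, the gene of cathepsin S, which trims class II invariant chain, had 0.00551 and 4.23 RPKM in PLT mice, against 28.4 and 77.8 RPKM in PEM mice (log2 fold change -4.39 ± 0.92). Over plate 1 of PEM mouse 2 Ctss was at 2.16 RPKM, below PLT mouse 2, and its log2 fold change was -2.07 without plate 2 and 1.24 among cells with under 3 markers of any mature cell type. Reads of H2-D1 may be shared with other class I genes, which are near copies, so its level is uncertain. Xaf1, an interferon-induced gene, was at 1 RPKM or more in 100% and 100% of cells in PLT mice, against 98.9% and 96% in PEM mice, while its mean overlapped.

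Among stress genes those of the integrated stress response were low more often than the 21.9% over all genes, while chaperone and immediate early genes were near it. Of 23 genes of the integrated stress response, 3 lay above both PEM mice and 10 below, with a median of -0.54. Trib3, a pseudokinase gene induced by ATF4 and CHOP, had 0.00264 and 0.314 RPKM in PLT mice, against 14.5 and 8.92 RPKM in PEM mice (log2 fold change -3.43 ± 0.77), and Phgdh, the first enzyme of serine synthesis, had 36.5 and 51.6 RPKM in PLT mice, against 131 and 121 RPKM in PEM mice (log2 fold change -1.51 ± 0.43). Vldlr was listed at 0 and 0 RPKM in PLT mice and had 11.9 and 7.42 RPKM in PEM mice. Of 26 chaperone genes, 0 lay above and 6 below, with a median of -0.35. Immediate early genes, which respond to handling of cells, had a median of -0.46 with 1 of 23 above and 4 below, and Myc had 81.9 and 88.8 RPKM in PLT mice, against 127 and 140.5 RPKM in PEM mice. Myc was at 69.4 RPKM over plate 1 of PEM mouse 2, so its levels overlapped without plate 2, at a log2 fold change of -0.14 against -0.64 ± 0.34 with it. The glucocorticoid-induced Tsc22d3 had 121 and 63 RPKM in PLT mice, against 154 and 200.02 RPKM in PEM mice, with 446 and 984 RPKM in MUL mice.

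Mt1, a metallothionein that binds zinc and copper, had 231 and 280.1 RPKM in PLT mice, against 116 and 119.6 RPKM in PEM mice (log2 fold change 1.11 ± 0.44), with 31.6 and 15.1 RPKM in MUL mice. It was at 1 RPKM or more in 82.8% and 95.2% of cells in PLT mice, against 78.5% and 48% in PEM mice, and the groups overlapped in neither measure. Mt2 had 14.3 and 18.9 RPKM in PLT mice, against 8.91 and 6.48 RPKM in PEM mice. Gpx1 and Gpx4, peroxidases that reduce hydrogen peroxide and lipid peroxides, lay below both PEM mice. Gpx1 had 634 and 946 RPKM in PLT mice, against 1201 and 1745 RPKM in PEM mice (log2 fold change -0.90 ± 0.32), and Gpx4 had 101 and 157 RPKM in PLT mice, against 252 and 238 RPKM in PEM mice (log2 fold change -0.95 ± 0.35). Over 31 redox genes, 5 lay above and 9 below, against 14.1% and 21.9% over all genes, with a median of -0.10.

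Genes of glucose use were split, and the 4 members named below were lower in PLT mice. Of 33 genes of glycolysis and hypoxia, 6 lay above both PEM mice and 11 below, with a median of -0.37. The shares over all genes were 14.1% and 21.9%. Slc2a3, a glucose transporter gene, had 24.6 and 10.6 RPKM in PLT mice, against 61.6 and 41.8 RPKM in PEM mice (log2 fold change -1.58 ± 0.54). Pkm, the gene of pyruvate kinase, had 159.9 and 106 RPKM in PLT mice, against 348 and 235 RPKM in PEM mice (log2 fold change -1.13 ± 0.40), and Pfkm, of phosphofructokinase, had 0.0648 and 3.46 RPKM in PLT mice, against 9.68 and 11.6 RPKM in PEM mice. Ndrg1, a gene induced by hypoxia, had 9.3 and 2.47 RPKM in PLT mice, against 27.3 and 25.4 RPKM in PEM mice (log2 fold change -2.19 ± 0.67). All 4 lay below both PEM mice, while 6 other members lay above. At an unadjusted p under 0.05 in limma stood 3 members with a higher level in PLT mice and 4 with a lower one.

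Fatty acid and lipid genes had 5 of 27 above and 11 below, against 14.1% and 21.9% over all genes. Their median was -0.45. Etfa, a subunit of the electron carrier of fatty acid oxidation, had 215 and 302 RPKM in PLT mice, against 114 and 151 RPKM in PEM mice (log2 fold change 0.96 ± 0.36), and Etfdh, the enzyme that accepts its electrons, had 61.4 and 39.9 RPKM in PLT mice, against 78 and 132 RPKM in PEM mice (log2 fold change -1.02 ± 0.43). The 2 steps of this chain thus differed in opposite directions. Abca1, a cholesterol exporter gene, had 5.65 and 3.1 RPKM in PLT mice, against 0.123 and 0.00086 RPKM in PEM mice.

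Among signalling genes beside Gna15, Rgs18, a brake on G protein signalling in platelets, had 686 and 882 RPKM in PLT mice, against 351 and 439 RPKM in PEM mice (log2 fold change 0.98 ± 0.35). Its relative Rgs1 had 83.3 and 211 RPKM in PLT mice, against 250.2 and 479 RPKM in PEM mice (log2 fold change -1.38 ± 0.49). The 2 regulators differed in opposite directions. Prkar2b, a regulatory subunit gene of protein kinase A found in platelets, had 20.9 and 32 RPKM in PLT mice, against 14 and 2.25 RPKM in PEM mice. Over the 27 genes of this group, 3 lay above both PEM mice and 7 below, against 14.1% and 21.9% over all genes. Their median was -0.36.

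Chromatin genes were balanced, with 6 of 30 above and 6 below and a median of 0.01. The shares over all genes were 14.1% and 21.9%. Polycomb genes were among those above. Bmi1 had 21.5 and 12.5 RPKM in PLT mice, against 7.4 and 0.503 RPKM in PEM mice, Ezh2, the H3K27 methyltransferase, had 22.2 and 30.6 RPKM in PLT mice, against 17.6 and 1.5 RPKM in PEM mice, and Suz12 had 11.4 and 20.4 RPKM in PLT mice, against 7.82 and 2.03 RPKM in PEM mice. The log2 fold changes of 1.99 ± 0.90 for Ezh2 and 1.66 ± 0.78 for Suz12 were 2.62 and 2.46 without plate 2 of PEM mouse 2. Cbx7, another Polycomb subunit, lay below, with 1.81 and 0.893 RPKM in PLT mice, against 6.41 and 12.9 RPKM in PEM mice (log2 fold change -2.13 ± 0.80, and -1.54 without that plate). PEM mouse 2 was the lowest of the 4 for Bmi1, Ezh2 and Suz12, and the differences from PEM mouse 1 were smaller.

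**Figure D5:**
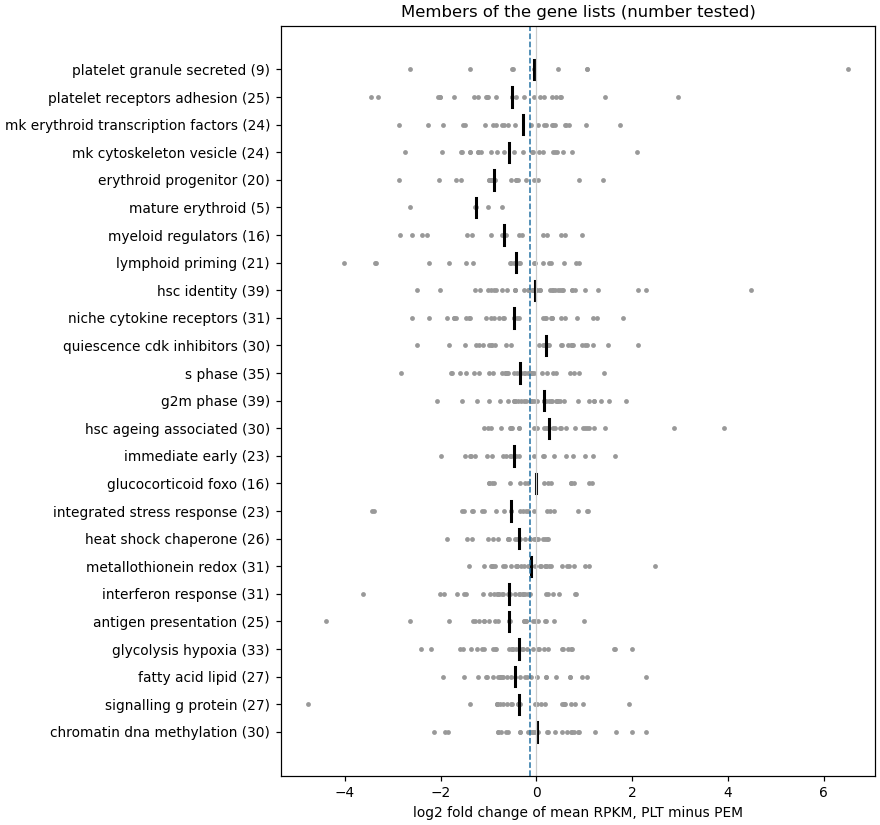
Log2 fold change of mean RPKM, PLT minus PEM, for each tested member of each gene group (grey points), with the median of the group (black bar), the median of all genes at -0.13 (dashed line) and 0 (thin line). Erythroid progenitor, myeloid, interferon and antigen presentation genes have medians from -0.87 to -0.56, and the single point at 6.52 among granule genes is Mmrn1.

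The test of shares named further genes that few PLT cells held. Dok2, an adaptor gene that restrains kinase signalling in blood cells, was at 1 RPKM or more in 6.45% and 10.7% of cells in PLT mice, against 35.5% and 32% in PEM mice, and had 18.3 and 10 RPKM in PLT mice, against 74.5 and 97.3 RPKM in PEM mice (log2 fold change -2.56 ± 0.56). Kctd10 was in 2.15% and 10.7% of cells in PLT mice, against 34.4% and 36% in PEM mice. Nop9 was in 3.23% and 8.33% of cells in PLT mice, against 28% and 32% in PEM mice. Each lay below both PEM mice. Rnf34, a ubiquitin ligase gene, was in 3.23% and 5.95% of cells in PLT mice, against 22.6% and 28% in PEM mice, Vps39, a gene of vesicle fusion with lysosomes, in 5.38% and 4.76% of cells in PLT mice, against 26.9% and 24% in PEM mice, and Prodh, of proline breakdown, in 8.6% and 9.52% of cells in PLT mice, against 31.2% and 36% in PEM mice. These shares in PLT mice were a fraction of those in PEM mice, where fewer genes were detected per PLT cell in general.

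In the higher direction the test of shares named genes near the ceiling and genes near the floor. Mob4 was in 98.9% and 100% of cells in PLT mice, against 92.5% and 92% in PEM mice, and Ccdc125 in 95.7% and 90.5% of cells in PLT mice, against 78.5% and 64% in PEM mice. Ncan, the gene of neurocan, was in 18.3% and 22.6% of cells in PLT mice, against 1.08% and 8% in PEM mice, at mean levels of 0.699 and 0.772 RPKM in PLT mice, against 0.402 and 0.606 RPKM in PEM mice, too low for the test of means. Y-linked and X-inactivation transcripts also set PEM mouse 2 apart: Eif2s3y had 146 and 84.8 RPKM in PLT mice, against 53.6 and 0 RPKM in PEM mice, and Ddx3y 65.4 and 36.5 RPKM in PLT mice, against 33.8 and 0.00096 RPKM in PEM mice. These 2 genes were left out of the reading of the groups, since they separate PEM mouse 2 from all other mice.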

How the data were processed

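Single donor-derived HSCs were sequenced as 1 library a cell. Reads were processed with TopHat and featureCounts on the mm10 build, per the submitters' processing notes, which as used here carry no versions. The deposited table of expression holds RPKM values made by the authors, and a second table gives counts of mapped reads and of detected genes and the percent of mitochondrial reads for each cell, per the file headers. No count model was fitted, since the values are RPKM. All cells were kept, doublets were not called since cells were sorted singly, and no 2 cells had identical values (0 of 458). Every column of the table belonged to a sample of the series.

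Each mouse was represented by the mean RPKM over its cells. Limma 3.58.1 in R 4.3.3 was fitted to log2(mean RPKM + 1) over all 6 mice with 1 mean per group, the contrast PLT minus PEM and a trended prior variance, for genes whose mean reached 1 RPKM in 2 or more mice. A fold change on this scale understates that of low genes. A second limma fit took the arcsine square root of the share of cells at 1 RPKM or more, for genes with a share of at least 10% in at least 2 mice. P-values were adjusted by the Benjamini-Hochberg method over all genes of a fit, with a threshold of 0.05. They measure the spread between mice, with 3 residual degrees of freedom, which the prior raised to a median of 8.33 in the fit of means. Both MUL mice share the code at the start of their names that is read here as the experiment. On that reading their spread holds no difference between experiments. With the 4 PLT and PEM mice alone, limma gave 719 of 10558 genes an unadjusted p under 0.05 in the fit of means. The lowest adjusted p was then 0.335. Mouse numbers only name the mice and pair none. Intervals of shares are exact binomial.

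Named genes were, per direction, the 12 with the smallest p in the fit of means and the 8 in the fit of shares, without overlap between PLT and PEM mice, then up to 4 such members of each of 35 gene lists, and 36 genes of HSC and lineage identity. Predicted genes were not described, and some genes that the rule named are not reported here. The members and lists were chosen with earlier results of these data known. Positions are from GENCODE M21 on GRCm38, the build of the authors' notes, and sequences from RefSeq on GRCm38.p6. Both fits were tested on simulated data. The alternatives were other pseudocounts, filters, scalings, variance priors, subsets of cells and mice left out, and 2 were chosen after seeing the data: recorded sex as a covariate, and leaving out plate 2 of PEM mouse 2. The sex covariate took PLT mouse 2 as female, against its Eif2s3y and Xist levels. It therefore may not follow the sex of the sequenced cells.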

Additional observations from a re-analysis of the deposited data

Results flagged for a closer look

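The Y-linked gene Eif2s3y averaged 84.8 RPKM in PLT mouse 2, which the table of cells records as female. This transcript lay outside the comparison, and it is given here because PEM mouse 2, the other mouse recorded as female, had it at 0. Eif2s3y averaged 146 RPKM in PLT mouse 1 and 53.6 RPKM in PEM mouse 1, both recorded as male. Xist averaged 0.0237 RPKM in PLT mouse 2 and 30.7 RPKM in PEM mouse 2. Whether the record gives the sex of the donor or of the recipient is not stated in the sources used here.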

How the results depend on the processing

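No gene passed in the test of means under 22 of 23 alternatives. With no filter on low values 4 of 15756 genes did, 3 higher (Proca1, Prkd1 and Dnajc25) and 1 lower (Hist3h2ba), named here after their values were seen, and over the mice left out in turn the count stayed at 0. In the test of shares 1 gene passed on the logit scale, Gna15, and 3 passed when any value above 0 counted as a cell. Leaving out mice in turn gave 0 to 20 genes, the 20 without PEM mouse 1, all higher in PLT mice, where the comparison rests on the 25 cells of PEM mouse 2. Genes at an unadjusted p under 0.05 in the test of means ranged from 558 without PEM mouse 2 to 1382 without PEM mouse 1. With the mean over cells of log2 values, 52 were higher and 1283 lower, and among cells with 1800 to 3000 detected genes 563 were higher and 471 lower. Of the 24 genes named first, 23 kept their sign in all alternatives that gave them a value. The adjusted p of these 24 went no lower than 0.0617, that of Mmrn1 with a prior variance without a trend. Over these alternatives, 34 values changed sign among named genes whose levels did not overlap, and the cause was not tested. Named genes that overlapped are outside this count and the list below, and their signs were less stable. Of 23 alternatives, Ptprc kept its sign in 15, Hlf in 17 and Pf4 in 20. With cells of under 3 markers of any mature list, which kept 27 and 46 cells of PLT mice and 15 and 6 of PEM mice, the log2 fold change was 0.19 for Sfpi1, 1.24 for Ctss, 0.71 for Ly6a, 0.28 for Nop9, 0.074 for Klf3, 0.42 for Fech, 0.12 for Cdt1, 0.0076 for Rgs1, -0.68 for Clu, -0.0087 for Angpt1 and -0.0011 for Ccdc125. Among cells with 1800 to 3000 detected genes it was 0.13 for Fech, 2.39 for Blvrb, 1.83 for Cdt1, 0.26 for Mcm7, 1.117 for Plk1, 0.22 for Myc, 1.21 for Cd79b and 1.91 for Gata1. On plate 1 it was -0.068 for Angpt1, 0.81 for Blvrb, 0.23 for Myc and 0.078 for Rtp4, and on plate 2 it was 0.39 for Epor, 0.12 for Itga5, 0.20 for Plk1, -0.98 for Alox12 and 0.64 for Gata1. With 25 cells a mouse it was -0.011 for Mob4, -0.85 for Ccdc125, -1.10 for Mt2 and -0.17 for Cdkn1c. With capped values it was -0.94 for Mt2, and without plate 2 of PEM mouse 2 it was 0.58 for Blvrb. No paired analysis was possible because the numbers of the mice only name them. Each PLT and PEM mouse also had a code of its own at the start of its name. For 0 of the 25 cells of PEM mouse 2 the exact 95% interval ends at 13.7%, so a gene not seen there may be held by that share of such cells.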
